A study of Mus musculus with 9 samples.

Results

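The 10 genes described here encode paracrine growth factors, most of which bind heparin or heparan sulfate, and their receptors, in cultured cardiac fibroblasts of the mouse. Of them, 7 encode ligands (Hgf, Fgf7, Fgf10, Fgf2, Ptn, Mdk and Nrg1) and 3 encode receptors (Met, Fgfr1 and Fgfr2). They were chosen by name, as the rows of the count table whose Ensembl identifiers carry these symbols, and they are 10 of 38924 genes in the table. The choice was made with the knowledge that Hgf and Fgf7 were higher in the Gata4 knockdown libraries, so for single genes the values of the Gata4 KD libraries are given below as a description with no p. Counts of genes past the threshold are given for each comparison that uses those libraries, and again under other settings in the closing section. Nothing is read from them. All 10 genes passed the filter on low counts in each of the 3 comparisons.

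RNA sequencing was carried out on fibroblasts from 8 to 10 week old mice with the genotype Cas9GFP on a C57BL/6 background, in which Cas9, the nuclease that guides direct, and EGFP are expressed from the Rosa locus. All groups shared these alleles, a culture of 3 days, a sort for CD45-CD31-CD90+ cells, replating and a further 6 days of growth before lipid transfection with guide RNAs. According to the study's methods, the adult mice were male, and all cultures were collected at the same time after transfection. The 3 groups, with 3 libraries each (a, b and c), received scrambled guides (control), guides to Gata4 (Gata4 KD) or guides to Tbx20 (Tbx20 KD). Gata4 and Tbx20 are transcription factors of the developing heart, and the cultures were harvested whole, so that edited and unedited cells were read together.

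HGF is secreted mainly by mesenchymal cells as an inactive single-chain precursor, is cut by serine proteases and acts through the tyrosine kinase MET, which is best known from epithelial and endothelial cells. FGF7 and FGF10 are likewise mesenchymal ligands and bind chiefly the epithelial splice form of FGFR2, whereas FGF2 prefers the splice forms found in mesenchyme, FGFR1 among them. FGF signalling needs heparan sulfate as a co-receptor, and pleiotrophin (Ptn), midkine (Mdk) and HGF are heparin-binding too. NRG1 acts on receptors of the ErbB family and in the heart is known chiefly as a signal from endothelium to cardiomyocytes. Splice forms are not told apart in counts per gene.

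The guides are printed because they are the only designed difference between the groups. Each sequence below is the 20 base target in lower case, 5′ to 3′, with the NGG motif that Cas9 needs next to it in capitals. All 4 targets lie in coding exons and were placed on GRCm38. Both Gata4 targets are on chromosome 14, at chr14:63204711-63204730 in exon 3 of 7, on the sense strand of the gene, and at chr14:63240581-63240600 in exon 2 of 7, on the antisense strand. Both Tbx20 targets are on chromosome 9, at chr9:24770708-24770727 in exon 2 of 8, on the sense strand, and at chr9:24765732-24765751 in exon 4 of 8, on the antisense strand.
Gata4_sgRNA1: cagagagtgtgtcaattgtgGGG
Gata4_sgRNA3: gcaggactgggctgtcgaagGGG
Tbx20_sgRNA2: caaattccatgaactgggcaCGG
Tbx20_sgRNA3: gagctgctcgccagtaaaggGGG

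The targets themselves were read first. Gata4 was 166, 155 and 167 CPM (counts scaled to library size with TMM factors over all 9 libraries) in controls a, b and c, 54.0, 46.7 and 65.5 CPM in Gata4 KD and 178, 192 and 198 CPM in Tbx20 KD. Gata4 was lower in Gata4 KD than in control by edgeR's quasi-likelihood test (log2 fold change -1.55, SE 0.12, adjusted p = 0.00272). Tbx20 was 1010, 1276 and 720 CPM in control, 674, 513 and 909 CPM in Gata4 KD and 320, 426 and 428 CPM in Tbx20 KD. The Tbx20 KD libraries all lay below the controls (log2 fold change -1.35, SE 0.21), with an adjusted p of 0.748 by edgeR's quasi-likelihood test, 0.0318 by the same test with no filter on low counts and 3.18e-08 by DESeq2. The controls spread by 278 CPM (SD, n = 3).

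Total counts were 31214828 to 41950397 per library. Replicates within a group differed by more than counting error (chi-square divided by its degrees of freedom 6.20 or more in each pair). The study calls the replicates biological, and no batch, date or animal is given for them in the labels. In Gata4 KD a, the ribosomal RNA-like Gm42418 took 2.71% of counts. The summed CPM of 8 fibroblast markers was 10932 to 12801 in control, 7674 to 11881 in Gata4 KD and 10491 to 13473 in Tbx20 KD, and 7 cardiomyocyte markers together stayed at or below 1.85 CPM, with Nppa at 0. Leukocyte markers summed to between 25.2 and 54.7 CPM, with Cd3e at 0, endothelial markers to between 41.5 and 61.3 CPM, mural markers to between 54.9 and 72.6 CPM, and Schwann cell markers to between 4.88 and 8.34 CPM. The sum that moved with Gata4 KD was mesothelial, over 6 of 7 listed markers, at 23.4 to 44.9 CPM in control, 8.11 to 15.8 CPM in Gata4 KD and 25.4 to 41.4 CPM in Tbx20 KD. In control most of it was Lrrn4 (15.7 to 32.5 CPM, against 2.09 to 2.74 CPM in Gata4 KD), and in Gata4 KD the marker with the most CPM was Krt19 (4.15 to 11.9 CPM, against 5.26 to 7.59 CPM in control). Upk3b did not overlap either (1.66 to 3.92 CPM in control, 0.606 to 1.11 CPM in Gata4 KD), Wt1 overlapped (0.616 to 0.844 and 0.526 to 1.02 CPM), and the defining markers Msln and Krt8 were at or below 0.327 and 0.118 CPM in every library. Over the 49 markers of all lists, 3 (Kdr, Rgs5 and Myl2) were higher in every Gata4 KD library than in any control, where 6.19% of genes were, and 7 (Col1a1, Tcf21, Csf1r, Upk3b, Krt8, Lrrn4 and S100b) were lower, where 7.62% of genes were. Those shares are over genes that passed the filter on low counts, whereas the markers were not filtered. Myl2 had 1 to 4 counts per library and Krt8 0 to 5, so their separation rests on few reads. The endothelial Kdr had 2.29 to 3.47 CPM in control and 5.06 to 6.19 CPM in Gata4 KD, and the fibroblast factor Tcf21 168 to 200.3 and 88.2 to 157 CPM. The other endothelial markers overlapped between these groups, among them Tek (20.7 to 35.7 and 16.2 to 33.5 CPM). The mean endothelial sum was 48.4 CPM in control and 48.96 CPM in Gata4 KD. Of the fibroblast markers, Col1a1 was lower like Tcf21, and the others overlapped. Among those, Pdgfra leaned higher in Gata4 KD (384.43 to 523.98 CPM in control, 511.99 to 667.9 CPM in Gata4 KD). The single markers named here were picked out by their values, and their part in the values below was not tested.

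The ligands Hgf, Fgf7 and Fgf10 shared a pattern, about 2.4 to 3.7 times the control mean in Gata4 KD, and are described together with the sequence in front of a RefSeq start of each. In GRCm38, Hgf lies on the plus strand at chr5:16553495-16620152, Fgf7 on the plus strand at chr2:126034658-126091185 and Fgf10 on the plus strand at chr13:118669791-118792115. The sequences are the 250 bases before the RefSeq start (GRCm38.p6, plus strand, 5′ to 3′) at chr5:16553245-16553494, chr2:126034408-126034657 and chr13:118714449-118714698. They were searched on both strands for AGATAA, for AGATAG, for TGATAA and for TGATAG, the forms of the 6-letter motif that GATA factors bind, and a match is in capitals. None of these bases lies in an annotated exon of the gene. The RefSeq start of Fgf10 lies inside its GENCODE span, so that its window is within the gene as placed above.
Hgf: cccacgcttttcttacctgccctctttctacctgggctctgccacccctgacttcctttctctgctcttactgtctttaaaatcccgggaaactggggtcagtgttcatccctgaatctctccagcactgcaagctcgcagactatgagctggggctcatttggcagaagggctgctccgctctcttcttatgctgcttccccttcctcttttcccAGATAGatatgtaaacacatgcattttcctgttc
Fgf7: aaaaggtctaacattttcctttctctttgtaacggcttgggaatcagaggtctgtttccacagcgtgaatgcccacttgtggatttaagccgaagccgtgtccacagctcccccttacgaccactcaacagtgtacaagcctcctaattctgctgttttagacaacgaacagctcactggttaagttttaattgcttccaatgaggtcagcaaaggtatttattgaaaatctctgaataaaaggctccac
Fgf10: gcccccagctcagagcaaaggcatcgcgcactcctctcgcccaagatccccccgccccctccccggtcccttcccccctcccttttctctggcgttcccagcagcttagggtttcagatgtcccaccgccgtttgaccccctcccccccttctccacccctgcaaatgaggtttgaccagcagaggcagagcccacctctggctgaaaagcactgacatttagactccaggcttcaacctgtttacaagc

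The Hgf window printed held 1 match, AGATAG on the given strand, which begins 34 bases before the start. A second RefSeq window of Hgf, at chr5:16553651-16553900, overlaps an exon and held none. The Fgf7 and Fgf10 windows held none of these letters. Over the 8 RefSeq windows that 7 of the 10 genes had, 1 held a match, whereas 8718 of 32851 windows of all genes (26.5%) did. A match describes letters only, and binding of GATA4 was not measured.

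Hgf was read at 19.5, 22.4 and 18.1 CPM in controls a, b and c, at 68.2, 59.4 and 71.2 CPM in Gata4 KD and at 26.2, 30.0 and 30.2 CPM in Tbx20 KD. The 3 groups did not overlap, with Gata4 KD highest and control lowest. The group means were 20.01 ± 2.22, 66.3 ± 6.13 and 28.8 ± 2.23 CPM (SD, n = 3), so that Gata4 KD stood at 3.31 times control (log2 fold change 1.73, SE 0.11) and at 2.30 times Tbx20 KD (log2 fold change 1.203, SE 0.09). Leaving out each library in turn gave log2 fold changes over control between 1.66 and 1.82. In bulk RNA, more cells that express a gene and more of its RNA per cell cannot be told apart.

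Fgf7, also called keratinocyte growth factor, was read at 20.3, 25.6 and 17.4 CPM in control, at 54.9, 54.2 and 45.5 CPM in Gata4 KD and at 18.0, 19.7 and 15.9 CPM in Tbx20 KD. Every Gata4 KD library was above every other library, and the other groups overlapped. Gata4 KD stood at 2.44 times control (log2 fold change 1.29, SE 0.15) and at 2.88 times Tbx20 KD (log2 fold change 1.53, SE 0.10).

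Fgf10, a close relative of Fgf7, had few counts. There were 34 to 53 counts per control library, 138 to 192 in Gata4 KD and 44 to 61 in Tbx20 KD, or 0.925, 1.48 and 1.39 CPM, 4.82, 5.29 and 3.82 CPM, and 1.44, 1.38 and 1.14 CPM. The Gata4 KD libraries were again all above the rest. The log2 fold change was 1.87 (SE 0.23) over control, the highest of the 10 genes, and 1.81 (SE 0.18) over Tbx20 KD. Fgf7 and Fgf10 were thus alike in that Tbx20 KD overlapped control, whereas for Hgf it did not.

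**Figure D1:**
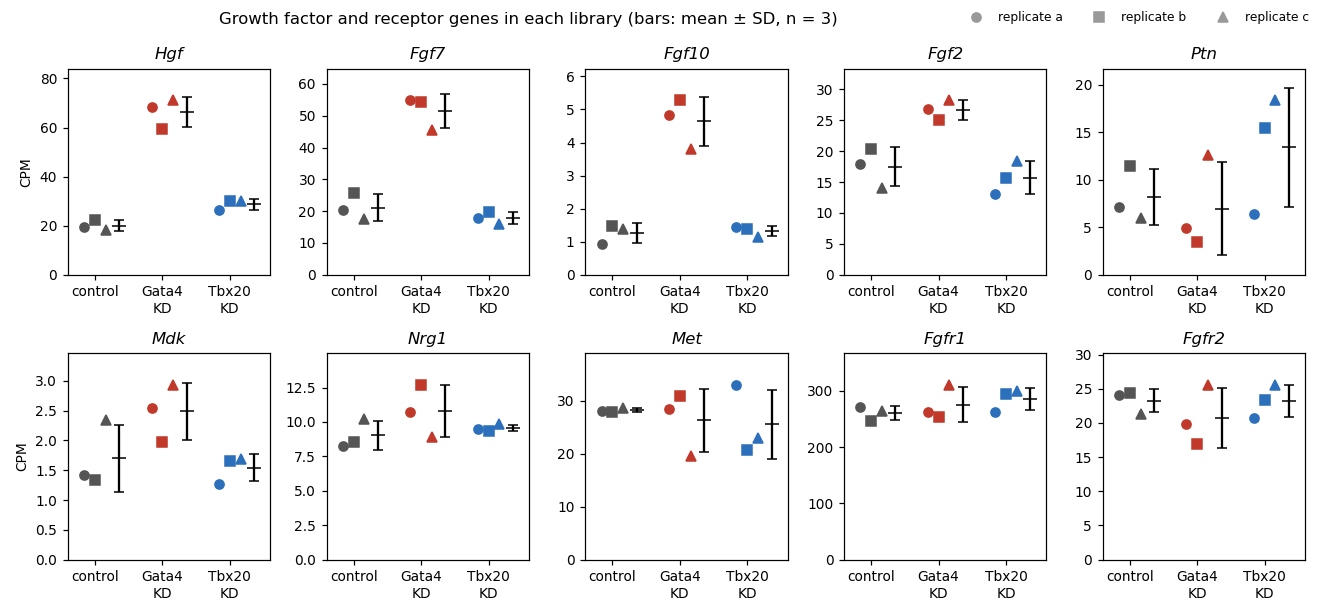
CPM of the 7 ligand and 3 receptor genes (each panel has its own linear axis from 0) in the 9 libraries, with 1 point a library, the symbol giving the replicate letter, and bars for the mean ± SD (n = 3). Hgf, Fgf7, Fgf10 and Fgf2 have all 3 Gata4 KD points above both other groups, from 59.4 CPM for Hgf against at most 30.2 CPM elsewhere, while the points of Ptn, Nrg1 and the 3 receptors overlap between groups.

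Fgf2, the basic fibroblast growth factor, lacks a classical secretion signal. It lies on the plus strand at chr3:37348346-37410108 and was read at 18.0, 20.3 and 14.1 CPM in control, at 26.7, 25.1 and 28.3 CPM in Gata4 KD and at 13.1, 15.6 and 18.5 CPM in Tbx20 KD. Gata4 KD did not overlap the other groups and stood at 1.53 times control (log2 fold change 0.61, SE 0.14) and 1.70 times Tbx20 KD (log2 fold change 0.76, SE 0.12).

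Pleiotrophin and midkine are related small heparin-binding cytokines, and their transcripts differed in how far replicates scattered. Ptn, on the minus strand at chr6:36714929-36810220, was read at 7.13, 11.5 and 5.97 CPM in control, at 4.88, 3.41 and 12.6 CPM in Gata4 KD and at 6.41, 15.5 and 18.4 CPM in Tbx20 KD. All 3 groups overlapped, and Gata4 KD c lay far above the other two libraries of its group. The log2 fold change of Gata4 KD over control was -0.23 (SE 0.45) with all libraries. With each library left out it ran from -0.96 (without Gata4 KD c) to 0.097 (without Gata4 KD b), and it was 0.090 without control b. Its sign thus depended on single libraries. Over Tbx20 KD the log2 fold change was -0.94 (SE 0.53), and it ran from -1.70 (without Gata4 KD c) to -0.61 with a library left out. Mdk, on the minus strand at chr2:91929805-91932297, had few counts, 48 to 106 per library. It was read at 1.42, 1.34 and 2.35 CPM in control, at 2.55, 1.98 and 2.93 CPM in Gata4 KD and at 1.28, 1.66 and 1.69 CPM in Tbx20 KD. Gata4 KD overlapped control (log2 fold change 0.55, SE 0.27) and was above all 3 Tbx20 KD libraries (log2 fold change 0.69, SE 0.20).

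Nrg1, on the minus strand at chr8:31814551-32884029, was read at 8.25, 8.57 and 10.2 CPM in control, at 10.7, 12.7 and 8.94 CPM in Gata4 KD and at 9.46, 9.37 and 9.82 CPM in Tbx20 KD. The groups overlapped, and the log2 fold change of Gata4 KD over control was 0.26 (SE 0.16).

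The receptors overlapped between all groups. Met, the HGF receptor, on the plus strand at chr6:17463800-17573980, was read at 28.1, 27.9 and 28.6 CPM in control, at 28.4, 30.9 and 19.6 CPM in Gata4 KD and at 33.0, 20.8 and 22.9 CPM in Tbx20 KD. The controls lay within 1 CPM of each other, while each knockdown group held libraries above and below them. The log2 fold change of Gata4 KD over control was -0.10 (SE 0.16) and became 0.10 without Gata4 KD c.

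Fgfr1, on the plus strand at chr8:25513654-25575718, was read at 272, 246 and 264 CPM in control, 263, 253 and 311 CPM in Gata4 KD and 263, 294 and 300 CPM in Tbx20 KD (log2 fold change of Gata4 KD over control 0.08, SE 0.10). Fgfr2, on the minus strand at chr7:130162451-133123350, was read at 24.1, 24.3 and 21.3 CPM in control, at 19.9, 16.9 and 25.6 CPM in Gata4 KD and at 20.8, 23.4 and 25.5 CPM in Tbx20 KD (log2 fold change of Gata4 KD over control -0.16, SE 0.15). No group of either receptor stood clear of another.

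**Figure D2:**
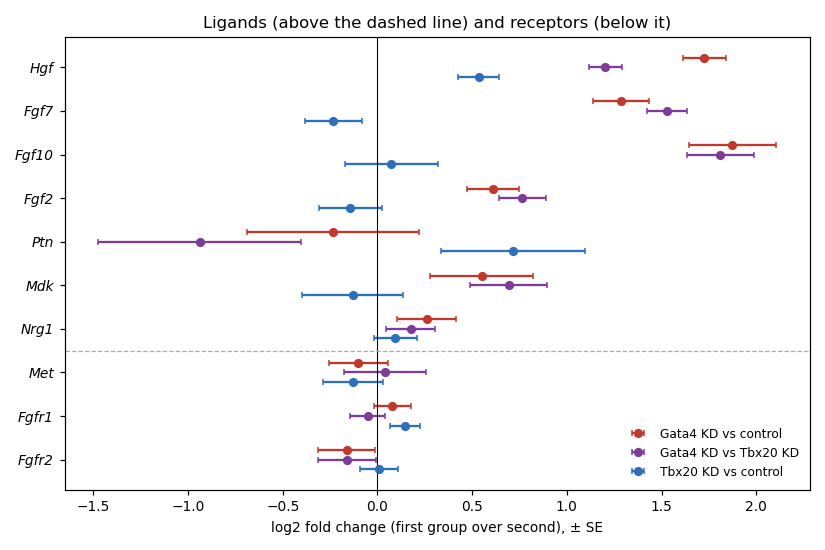
Log2 fold change (horizontal axis, first group over second, ± SE) of the 10 genes in the 3 comparisons, from edgeR's fit on the 6 libraries of each. The red and purple points of Hgf, Fgf7, Fgf10 and Fgf2, which use the Gata4 KD libraries, lie between 0.61 and 1.87, while those of the 3 receptors, below the dashed line, lie between -0.16 and 0.08.

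Counted over the whole set, 3 of 10 genes (Hgf, Fgf7 and Fgf10) had an adjusted p under 0.05 for Gata4 KD over control, all higher, where 0.380% of 14468 genes did in either direction and 0.200% were higher. In 4 of 10 genes all Gata4 KD libraries were above all controls, where 6.19% of genes were. The median log2 fold change was 0.61 over the 7 ligands and -0.10 over the 3 receptors, beside -0.02 over all genes tested. The rule that chose the genes used these libraries, and nothing is read from these counts. The count of 3 depended on single libraries. It fell to 1 (Hgf) without Gata4 KD a, Gata4 KD b or control a, was 2 (Hgf and Fgf7) without control c, and was 4 (with Fgf2) without control b.

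The direct comparison of Gata4 KD with Tbx20 KD uses no control library but the same Gata4 KD libraries. Here 4 of 10 genes (Hgf, Fgf7, Fgf10 and Fgf2) had an adjusted p under 0.05, all higher in Gata4 KD, where 1.44% of 14477 genes did and 0.815% were higher. In 5 of 10, the former 4 and Mdk, the groups did not overlap, where 12.2% of genes were higher without overlap. The choice of genes used the Gata4 KD libraries, and nothing is read from these counts either. The count of 4 fell to 2 (Hgf and Fgf7) without Gata4 KD a, Tbx20 KD b or Tbx20 KD c. Over the 6 fits with a library left out, Fgf10 was called in 3 and Fgf2 in 1.

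Tbx20 KD against control is not the comparison in which Hgf and Fgf7 were known to be higher. It shares the 3 control libraries with the Gata4 KD comparison, and the genes were chosen with earlier results of these data known. Its p values are therefore not independent of the choice. None of the 10 genes passed edgeR's quasi-likelihood test with adjustment over 14547 genes, where 1 gene (0.00687%, Mmp13) did, and Tbx20 itself did not (DESeq2 called it). At an unadjusted p under 0.05 there was 1 of the 10 genes, Hgf, where 2.69% of genes were, and DESeq2 called the same gene.

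Hgf was 1.44 times control in Tbx20 KD, with a log2 fold change of 0.53 (SE 0.11), all 3 libraries above all 3 controls, where 2.80% of genes were, and an unadjusted p of 0.00100. Its adjusted p was 1.0 by edgeR and 0.0467 by DESeq2, and it was at least 0.0875 by edgeR when any 1 library was left out. The difference therefore did not hold under adjustment in the test used throughout.

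For Ptn, the log2 fold change of Tbx20 KD over control was 0.72 (SE 0.38), with Tbx20 KD a inside the control range. The other 8 genes had log2 fold changes between -0.23 (Fgf7, SE 0.15) and 0.14 (Fgfr1, SE 0.08), and their groups overlapped. The medians were 0.07 over the ligands and 0.01 over the receptors, beside 0.00 over all genes tested.

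Levels of different genes were compared per length, as CPM per kb of merged exons. In control Fgfr1 stood at 26.4, Fgf7 at 6.50, Met at 3.67, Hgf at 2.79, Fgf2 at 2.58, Ptn at 2.39, Fgfr2 at 2.25, Mdk at 1.29, Nrg1 at 0.871 and Fgf10 at 0.275 CPM per kb. Neighbours from Hgf to Fgfr2 in this order overlapped in their ranges over libraries, and the other neighbours did not.

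In Gata4 KD the order began with Fgfr1 at 27.9, Fgf7 at 15.9 and Hgf at 9.22 CPM per kb, none overlapping the next, and Hgf had passed Met, at 3.43 CPM per kb. Nrg1 and Fgf10, at 1.04 and 1.01 CPM per kb, overlapped there. In Tbx20 KD Hgf, at 4.01 CPM per kb, overlapped Ptn at 3.91, and Ptn overlapped Met at 3.33. Dividing by the longest transcript instead changed 6 of the 10 places in control, with Hgf then ahead of Met, so the middle of the order depends on the gene model.

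**Figure D3:**
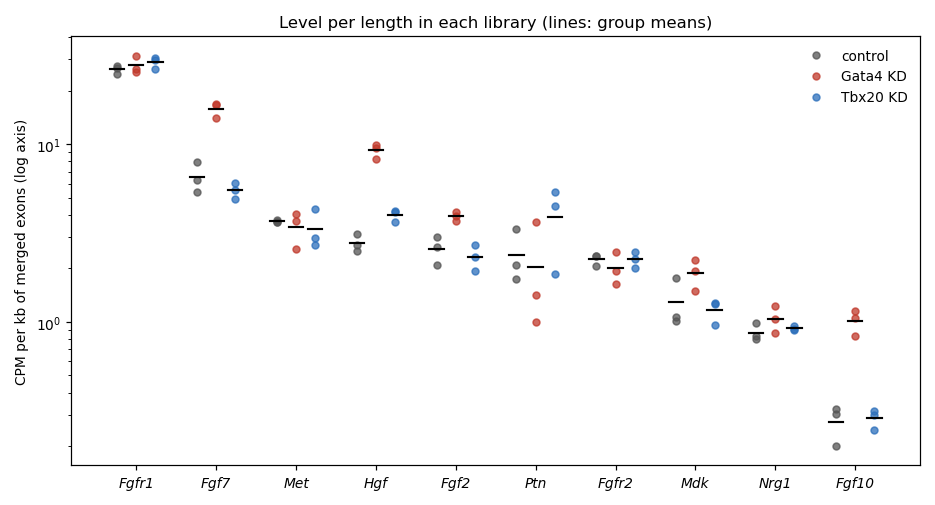
Level per length (CPM per kb of merged exons, log axis) of the 10 genes in each library, ordered by the control mean, with lines for group means. Fgfr1 lies highest in all 3 groups, at 26.4 to 28.9 CPM per kb, and the red Gata4 KD points of Fgf7, Hgf, Fgf2 and Fgf10 stand apart from the grey control and blue Tbx20 KD points.

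The genes whose levels ran most like those of Hgf over the 9 libraries were Cyp26b1, an enzyme that breaks down retinoic acid, Frk, a Src-related kinase, Lrrtm2, a synaptic adhesion protein, and Id4, an inhibitor of helix-loop-helix transcription factors. Likeness was the root mean square difference of log2 CPM after the mean of each gene was removed, among 10215 genes, and ran from 0.232 for Cyp26b1 to 0.296 for Id4. Cyp26b1 had 56.4 to 68.3 CPM in control, 157 to 172 CPM in Gata4 KD and 67.7 to 75.5 CPM in Tbx20 KD. Nearest to Fgf7 were Gucy1a2, a subunit of soluble guanylate cyclase, at 0.156, Cxcl5, a neutrophil chemokine, at 0.204, Id4 at 0.217 and Spp1, osteopontin, at 0.230. Fgf7 took place 7 by likeness to Hgf, at 0.344, and Hgf place 24 by likeness to Fgf7. Fgf10 was under the minimum of 5 CPM and not ranked, but its difference would have been place 4 from Hgf (0.296) and place 3 from Fgf7 (0.208). The receptor Met stood at 0.817 from Hgf. The 9 points are 3 groups of libraries, so these values are a description. Lrrtm2 and Id4 reached the minimum of 5 CPM only in Gata4 KD (1.45 to 3.22 and 1.93 to 3.78 CPM in control), so they entered the ranking through the group in which Hgf and Fgf7 are high.

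The other genes of these pathways were taken from 7 lists, with 105 genes listed besides the 10, 104 of them in the table and 73 with enough counts to be tested. No pathway gene passed for Gata4 KD over control (edgeR's quasi-likelihood test, 14 of 73 at an unadjusted p under 0.05, where 8.54% of all genes tested were, and 4 called by DESeq2), nor for Tbx20 KD over control (3 at an unadjusted p under 0.05, where 2.69% of all genes tested were, namely Flrt3, Gpc1 and Cbl, named only after seeing the values, and 0 by DESeq2). In the direct comparison 1 of 73 passed, Sulf1, with 14 at an unadjusted p under 0.05, where 16.7% of all genes tested were, and 9 called by DESeq2. The median log2 fold change over the 73 genes was 0.03 for Gata4 KD over control, -0.01 for Tbx20 KD over control and 0.04 for Gata4 KD over Tbx20 KD.

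Sulf1 is an extracellular sulfatase that removes sulfate groups from heparan sulfate and so alters the binding of growth factors to it. It was read at 826 ± 92.9 CPM in Gata4 KD, 531 ± 52.3 CPM in Tbx20 KD and 511 ± 68.7 CPM in control (SD, n = 3). Gata4 KD libraries, at 756 to 931 CPM, were above all others, and the log2 fold change over Tbx20 KD was 0.64 (SE 0.10, adjusted p = 0.0355, edgeR). The call was lost without Gata4 KD a or b, or without any 1 of the Tbx20 KD libraries, with adjusted p up to 0.159, and the log2 fold change stayed between 0.54 and 0.70. Over control it was 0.69 (SE 0.12, adjusted p = 0.0748, edgeR). Sulf2, of the same list and named only after seeing the values, ran the other way. Its Gata4 KD libraries, at 113 to 151 CPM, were below control (154 to 161 CPM) and Tbx20 KD (163 to 186 CPM). The log2 fold change of Sulf2 was -0.27 over control (SE 0.11, adjusted p = 0.537, edgeR). Over Tbx20 KD it was -0.42 (SE 0.11, adjusted p = 0.112, edgeR), where DESeq2 called it.

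Among 18 listed genes of HGF activation and MET signalling, 15 were tested and none passed in any comparison by edgeR (4, 1 and 6 at an unadjusted p under 0.05 for Gata4 KD over control, Tbx20 KD over control and Gata4 KD over Tbx20 KD, where 8.54%, 2.69% and 16.7% of all genes tested were).

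Among the other genes of the FGF family, 5 of 19 had enough counts to be tested (Fgf1, Fgf9, Fgf11, Fgf13 and Fgf18) and none passed, with no unadjusted p under 0.05 in any comparison. They were listed by family name, and whether each encodes a secreted ligand was not used. The median log2 fold change of these 5 was -0.40 for Gata4 KD over control, with SEs from 0.22 (Fgf1) to 0.56 (Fgf11). Their levels were low, with control means from 0.327 CPM (Fgf11) to 1.89 CPM (Fgf1). Fgf7, Fgf10 and Fgf2 belong to the set chosen with the rise of Fgf7 known, so they are not set against these genes. The highest per length in control was Fgf18, at 0.672 ± 0.123 CPM in control and 0.754 ± 0.186 CPM in Gata4 KD (SD, n = 3). Per length that control level was 0.566 CPM per kb.

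Of 12 further FGF receptors, co-receptors, carriers and docking proteins, 7 were tested and none passed. Fgfrl1, a receptor that lacks the kinase domain, led the list per length with 34.9 ± 2.83 CPM in control and 33.6 ± 5.91 CPM in Gata4 KD (SD, n = 3). The 13 tested feedback genes of FGF and ERK signalling, which are induced when the pathway is active, had a median log2 fold change of 0.13 for Gata4 KD over control, with 9 above 0 and 4 below and none past the test. At an unadjusted p under 0.05 (edgeR) there were 3, where 8.54% of all genes tested were. Etv5 (log2 fold change 0.25, SE 0.08) and Dusp6 (0.34, SE 0.15) were higher and Spry2 was lower, named only after seeing the values. Spry2, a Sprouty inhibitor and the highest of them per length in control, was at 141 ± 17.8 CPM in control and 119 ± 1.81 CPM in Gata4 KD (SD, n = 3; log2 fold change -0.24, SE 0.10, adjusted p = 0.568, edgeR).

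The heparan sulfate list had 20 of 22 genes tested, of which Sulf1 passed in the direct comparison by edgeR. Those at an unadjusted p under 0.05 (edgeR) numbered 5 for Gata4 KD over control, where 8.54% of all genes tested were. They numbered 1 for Tbx20 KD over control (2.69% of all genes tested) and 6 in the direct comparison (16.7%). The highest per length in control was Sdc3, a cell-surface heparan sulfate carrier, at 567 ± 37.4 CPM in control and 577 ± 102 CPM in Gata4 KD (SD, n = 3). Of 5 listed receptors of pleiotrophin and midkine 3 were tested, led by Ncl, nucleolin, at 939 ± 68.2 CPM in control and 958 ± 132 CPM in Gata4 KD (SD, n = 3). Of 15 neuregulins, EGF ligands and ErbB receptors 10 were tested, led by Ereg, epiregulin, at 142 ± 32.2 CPM in control and 161 ± 37.8 CPM in Gata4 KD (SD, n = 3). None of these 13 genes passed edgeR's quasi-likelihood test in any comparison, and DESeq2 called Lrp1 among them for Gata4 KD over Tbx20 KD.

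**Figure D4:**
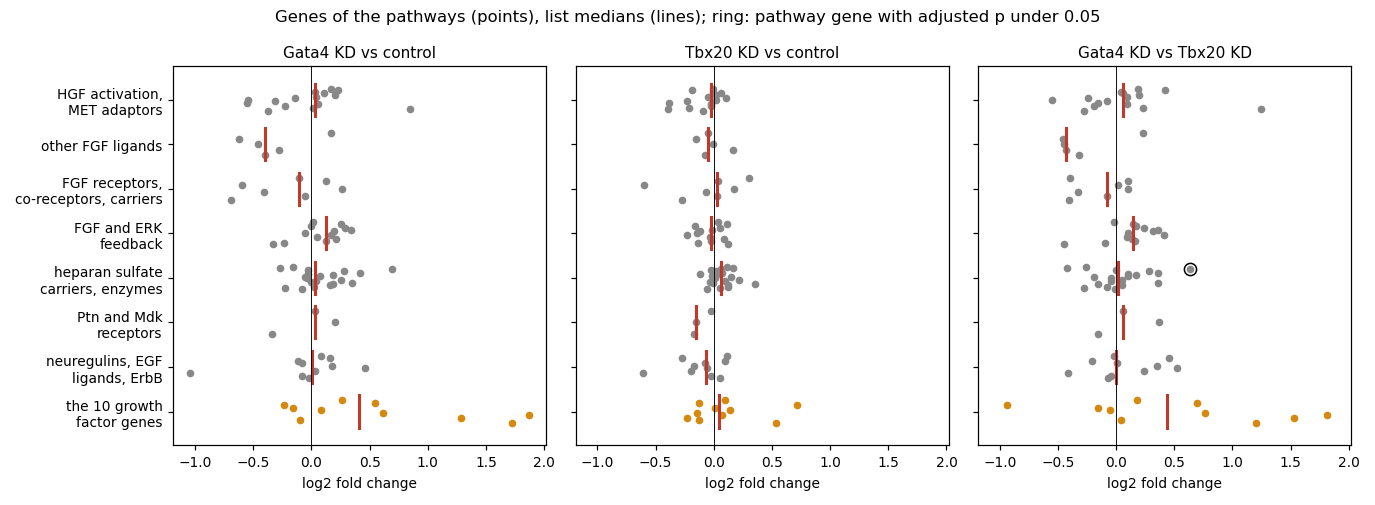
Log2 fold change (horizontal axis) of each tested pathway gene (grey points, 7 lists) and of the 10 growth factor and receptor genes (orange) in the 3 comparisons, with a red line at each median and a ring on the pathway gene with an adjusted p under 0.05. The single ring is Sulf1 for Gata4 KD over Tbx20 KD. The medians of the lists lie within 0.2 of 0 except for the 5 other FGF family genes (labelled other FGF ligands) with Gata4 KD (-0.40 and -0.43) and the orange genes (0.40 and 0.43).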

How the data were processed

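Counts per gene were deposited by the authors for 9 libraries. According to the study's methods, quality-trimmed 75 base single-end reads were aligned to GRCm38 with Bowtie2 and quantified by RSEM with a reverse-strand setting, whereas the submitters' processing notes name mm9, Bowtie and RSEM. The unit of the deposited table is the expected count (an estimated count per gene, held as whole numbers, not normalized). Reads that fit more than 1 gene are shared out by RSEM, and at most 5.65% of the 75 base windows of any of the 10 genes (Hgf) occur in another gene. Groups were taken from the labels.

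Symbols (for 96.6% of 38924 identifiers), positions and exon lengths were taken from GENCODE M21, and promoter windows from RefSeq. Each comparison was fitted on its 6 libraries in R 4.3.3 with edgeR 4.0.16, using filterByExpr, TMM, the quasi-likelihood F test, Benjamini-Hochberg adjustment over all genes tested and a threshold of 0.05, without a covariate. An exact permutation test of 3 against 3 libraries has 0.1 as its smallest p and was not used. The SE printed with a log2 fold change of edgeR is its absolute value divided by the square root of the F statistic, so it was worked back from the test. CPM was scaled by TMM over all 9 libraries. Alternatives were DESeq2 1.42.0, limma-voom (limma 3.58.1), a block for the replicate letter, 1 fit of all 9 libraries, library size in place of TMM, other count filters (a total above 0, or 10 counts in every library), leaving out each library, and the longest transcript as length. The procedure was tested on simulated data.

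The 10 genes, the pathway and marker lists and the rules were chosen with earlier results of these data known. Named were the 10 genes, both targets, pathway genes past the threshold, the highest gene per length in control of each list (1 is not reported here), and the 4 genes most like Hgf and Fgf7 among those with at least 5 CPM in a group (likeness used a pseudocount of 0.5). Protein sequences and splice forms were not analysed here. Spry3 and Muc16 were not matched.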

Additional observations from a re-analysis of the deposited data

How the results depend on the processing

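With each library left out, the log2 fold change of Gata4 KD over control stayed between 1.66 and 1.82 for Hgf, 1.17 and 1.45 for Fgf7, and 1.69 and 2.02 for Fgf10, while calls moved more. The genes were chosen with the rise of Hgf and Fgf7 known, so nothing is read from their calls in these fits. Counts of all genes called for Gata4 KD over control were 55 in the fit described, 273 with DESeq2, 121 with no filter, 148 with all 9 libraries in one fit and 6 to 189 when each library was left out. For Tbx20 KD over control they were 1, then 10 with DESeq2, 2 with no filter and 1 to 5 with a library left out. For Gata4 KD over Tbx20 KD they were 208, then 761 with DESeq2, 324 with no filter and 22 to 801 with a library left out. With library size alone the last count was 202, with 90 higher and 112 lower, against 118 and 90 with TMM. The cause was not tested.

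Of the 10 genes, those called numbered 1 to 4 for Gata4 KD over control and 2 to 4 for Gata4 KD over Tbx20 KD when each library was left out, and 1 (Hgf) for Tbx20 KD over control with DESeq2. Pathway genes called for Gata4 KD over control were 0 in the fit described, 4 with DESeq2 (Sulf1, Plau, Mst1r and Hs2st1), 1 (Sulf1) with no filter or with all 9 libraries, and 0 to 3 with a library left out. For Gata4 KD over Tbx20 KD they were 1, then 9 with DESeq2, 2 (Sulf1 and Hs2st1) with no filter or with at least 10 counts in every library, and 0 to 9 with a library left out.

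The labels do not say whether the replicate letters pair the libraries, and the correlations between libraries do not settle it. Deviations from group means of same-letter libraries correlated at -0.17 to 0.25, over 0.1 in 3 of 9 pairs. The library of the same letter was the best match in 7 of 18 cases. With the replicate block the calls were 5, 2 and 101 over all genes for Gata4 KD over control, Tbx20 KD over control and Gata4 KD over Tbx20 KD, and 0, 0 and 4 of the 10 genes. The log2 fold changes of Gata4 KD over control in that fit were 1.73 for Hgf, 1.30 for Fgf7 and 1.88 for Fgf10, and the 4 genes called over Tbx20 KD were Hgf, Fgf7, Fgf10 and Fgf2.

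For Tbx20 KD over control, small log2 fold changes changed sign. With each library left out, Fgf10 ran from -0.11 (without control a) to 0.22, Mdk from -0.27 to 0.17 (without control c) and Fgfr2 from -0.063 (without Tbx20 KD c; -0.047 without control c) to 0.082, and Fgfr2 was -0.0026 with all 9 libraries in one fit. Fgf10 and Mdk, with as few as 34 and 48 counts per library, carry the most counting error.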
